A study of Mus musculus with 16 samples.

Results

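The genes of cholesterol synthesis, of its control by the transcription factor SREBP2, and of sterol transport and storage were followed across 3 knockdown (KD) groups of a mouse macrophage line. They are the 28 gene records whose symbol is on a list of mevalonate and sterol enzymes, SREBP2 processing factors and sterol handling proteins, out of 55573 gene records in all. The working name of the list also mentions uptake, but the list names no lipoprotein receptor itself. All 28 passed the filter on low counts, among 13107 genes that did so.

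RNA was sequenced from RAW264.7 cells, an established macrophage-like line, in 16 libraries of 4 groups. The groups are named ORP5/8 KD, ATP11A/C KD, CDC50A KD and Parental, with 4 libraries each. ORP5 and ORP8 (genes Osbpl5 and Osbpl8) exchange phosphatidylserine at membrane contacts, ATP11A is a plasma membrane flippase for that lipid, and CDC50A (gene Tmem30a) is the partner subunit of such flippases. The series title concerns the clustering of phosphatidylserine and a form of phagocytosis, and the labels name no cargo. Names of KD libraries start with "sh", an abbreviation left unexplained, whereas those of Parental name no construct. No library in the 4 groups is labelled as carrying a non-targeting construct. All groups share the cell line, the complete medium and the harvest on the day after plating. The labels do not say whether the libraries of a group came from separate cultures or clones, so p-values cover only how these libraries vary, and that variation may be technical.

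Cholesterol is built from acetyl-CoA through mevalonate, which is turned into isoprenoid units. These are joined to farnesyl diphosphate, which either leaves the pathway for dolichol, coenzyme Q and protein prenylation or is joined head to head into squalene, closed to lanosterol and trimmed to cholesterol. When membranes of the endoplasmic reticulum are poor in cholesterol, SCAP escorts SREBP2 to the Golgi, where a pair of proteases frees its transcription factor domain; when they are rich in it, INSIG proteins hold SCAP back. Macrophages take in much cholesterol with lipoproteins and dead cells, store the surplus as esters and export the rest.

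Promoters were searched because SREBP2 acts through short DNA sites close to gene starts, together with the factors NF-Y and Sp1. RefSeq promoter windows on GRCm38.p6, from 250 bases before to 50 bases after the start, were matched for 24 of the 28 genes, all but Fdft1, Fdps, Sqle and Stard4. Both strands were searched for TCACNCCAC (a sterol regulatory element), CCAAT (bound by NF-Y) and GGGCGG (bound by Sp1). The first occurred in 1 of 24 genes, Hmgcs1, where TCACCCCAC begins at position -137 from the start, against 1.44% of all 27025 genes with a window. CCAAT occurred in 20 of 24 genes (83.3%), against 41.1% of all genes with a window and 43.6% of the 9279 tested ones that have a window. GGGCGG occurred in 21 of 24 genes (87.5%), against 38.2% and 68.6%. Acat2, Mbtps1, Mbtps2 and Scap had no CCAAT in their windows, and Ggps1, Mbtps2 and Pmvk no GGGCGG. These are matches of letters and not measured binding, and a window without a match says only that. Hmgcs1 is printed as the holder of the sterol element (chr13:119690101-119690400, plus strand). The other windows were chosen after the values were seen: Hsd17b7 for the lowest log2 fold change against Parental (chr1:169969156-169969455, minus strand), Soat1 for the lowest in ATP11A/C KD (chr1:156474279-156474578, minus strand), and Scap for the highest (chr9:110333038-110333337, plus strand). Capitals mark matches to any of the 3 motifs on either strand.
Hmgcs1: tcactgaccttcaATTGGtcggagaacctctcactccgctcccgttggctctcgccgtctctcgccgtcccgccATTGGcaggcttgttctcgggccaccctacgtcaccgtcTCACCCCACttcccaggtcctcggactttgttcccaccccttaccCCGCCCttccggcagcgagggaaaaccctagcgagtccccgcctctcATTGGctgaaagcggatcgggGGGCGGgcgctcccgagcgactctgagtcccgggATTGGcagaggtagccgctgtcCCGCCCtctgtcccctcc
Hsd17b7: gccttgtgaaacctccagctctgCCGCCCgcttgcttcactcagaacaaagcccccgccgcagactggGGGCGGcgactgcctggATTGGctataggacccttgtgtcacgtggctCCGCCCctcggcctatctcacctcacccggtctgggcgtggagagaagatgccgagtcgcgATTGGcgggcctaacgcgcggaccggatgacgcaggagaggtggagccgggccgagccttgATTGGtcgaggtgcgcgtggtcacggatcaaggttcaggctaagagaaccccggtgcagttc
Soat1: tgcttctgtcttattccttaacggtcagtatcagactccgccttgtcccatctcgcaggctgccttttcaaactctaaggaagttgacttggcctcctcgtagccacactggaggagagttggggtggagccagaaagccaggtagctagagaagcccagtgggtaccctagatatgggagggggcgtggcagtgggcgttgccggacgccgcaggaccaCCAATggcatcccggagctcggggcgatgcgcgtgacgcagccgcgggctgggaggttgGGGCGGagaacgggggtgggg
Scap: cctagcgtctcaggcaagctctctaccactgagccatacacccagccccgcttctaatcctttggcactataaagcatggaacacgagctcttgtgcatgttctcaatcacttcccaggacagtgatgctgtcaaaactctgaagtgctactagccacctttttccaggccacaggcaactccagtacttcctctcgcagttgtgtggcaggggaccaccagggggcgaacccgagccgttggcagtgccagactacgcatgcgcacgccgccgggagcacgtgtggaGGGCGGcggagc
Hmgcs1 has 4 CCAAT and 3 GGGCGG matches in its window, Hsd17b7 3 and 3, Soat1 1 and 1, and Scap 0 and 1.

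Total counts per library ran from 24020891 to 41543050, and the biological coefficient of variation was 6.86%. Levels are CPM, counts-per-million after TMM scaling, and each mean ± SD covers 4 libraries. The label check by the targeted genes gave Osbpl8 at 29.4%, 37.6% and 34.5% of the Parental mean in libraries labelled ORP5/8, ATP11A/C and CDC50A KD. Atp11a stood at 86.8%, 34.9% and 70.1% of the Parental mean in the same order of groups, and Tmem30a at 80.8%, 87.9% and 78.6%. Osbpl5 had 28, 29 and 19 counts summed over the libraries of the 3 KD groups and 18 over Parental, too few for the test. Osbpl8 was thus low in every KD group. Tmem30a did not set the libraries labelled CDC50A KD apart from those labelled ORP5/8 KD or ATP11A/C KD, and its levels overlapped with both. Directions below are therefore those of libraries carrying each label. Macrophage markers had counts for 8 of 8 genes in every group, with a summed level of 7241 to 7651 CPM in ORP5/8 KD, 6015 to 6416 in ATP11A/C KD, 7028 to 7339 in CDC50A KD and 11215 to 11940 in Parental. All 4 epithelial markers were at 0, and fibroblast markers summed to at most 0.693 CPM in any library. Of 5 lymphocyte markers Cd3e and Cd3g were at 0, while Ighm stood at 135 ± 3.44 CPM in ORP5/8 KD, 169 ± 6.37 in ATP11A/C KD, 199 ± 10.5 in CDC50A KD and 100.0 ± 3.37 in Parental. Mitochondrial genes held 1.68%, 1.56% and 1.63% of counts in ORP5/8, ATP11A/C and CDC50A KD and 1.19% in Parental. The parts of these shifts in the results below were not tested, and in bulk RNA fewer cells with a transcript and less of it per cell cannot be told apart.

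Per kilobase of merged exon, the farnesyl diphosphate synthase gene Fdps stood highest among the 28 in Parental at 129 CPM per kb, followed by Tmem97 at 105, Idi1 at 58.0 and Srebf2 at 48.5. The lowest were Insig2 at 6.41, Ggps1 at 5.41 and Tm7sf2 at 1.42 CPM per kb. Reads shared with other genes make the levels of Acat2, Fdps, Idi1, Mbtps2 and Tmem97 less certain, since their expected counts carried decimals in all 16 libraries. The same held in 7 libraries for Tm7sf2, whose exons overlap Vps51 on the same strand, in 3 for Fdft1 and in 1 for Ggps1. Mbtps2 and Fdps also share exon bases on the same strand with Yy2 and Gm43738.

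Each KD group was compared with Parental to see how the pathway's RNA differs when phosphatidylserine transfer or flipping is targeted. Most genes of the pathway were modestly lower, the lowest mean being 66.8% of the Parental mean (Hsd17b7 in ORP5/8 KD). In ORP5/8 KD, 19 of the 28 genes were lower and 0 higher by edgeR's quasi-likelihood test at a Benjamini-Hochberg adjusted p under 0.05. The share of the 28 called lower was 67.9%, while over all genes tested in ORP5/8 KD 24.3% were called lower and 22.0% higher. In ATP11A/C KD, 15 were lower and 2 higher, against 20.2% and 17.4% of all genes tested. For CDC50A KD the counts were 17 lower and 3 higher, against 26.1% and 24.3% of all genes tested. The median log2 fold changes of the 28 were -0.24, -0.12 and -0.18 for the ORP5/8, ATP11A/C and CDC50A KD groups, where those of all genes tested were 0.02, 0.01 and -0.01. The 3 comparisons share the Parental libraries. Under upper-quartile scaling the share of higher genes among all calls in ORP5/8 KD was 63.3%, against 47.5% under TMM. In that fit 16 of the 28 genes were lower and 2 higher, beside 2479 lower and 4270 higher of 13107 genes tested.

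**Figure D1:**
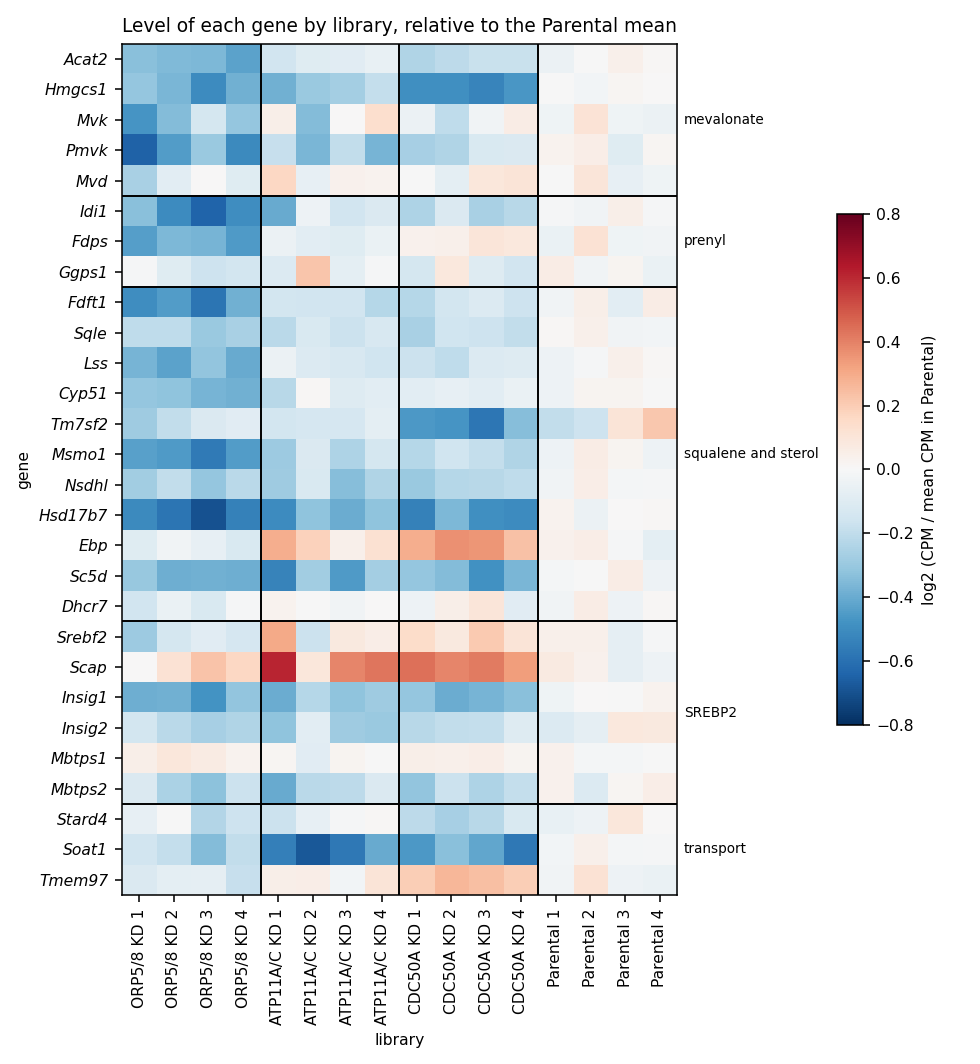
Level of each of the 28 genes (rows, by role) in each of the 16 libraries (columns), as log2 of CPM over the mean CPM of Parental, from blue (lower) to red (higher). The ORP5/8 KD columns are blue in most rows, Scap is red in the ATP11A/C and CDC50A KD columns, and Soat1 is darkest in ATP11A/C KD, where its mean was 210.1 CPM against 307 CPM in Parental.

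Among the 5 mevalonate enzymes, 4, 3 and 3 were called lower in the ORP5/8, ATP11A/C and CDC50A KD groups, and none was called higher. The counts by role, here and below, stand beside 24.3%, 20.2% and 26.1% of all tested genes lower in those groups. The shares higher were 22.0%, 17.4% and 24.3%. Hmgcs1, the HMG-CoA synthase whose promoter holds the sterol element (chromosome 13, 119690379 to 119708260), was lower in all 3 groups. Its libraries read 142, 137, 124 and 135 CPM in ORP5/8 KD, 136, 144, 146 and 154 in ATP11A/C KD, and 125, 126, 122 and 128 in CDC50A KD, against 176, 174, 179 and 177 CPM in Parental. No KD library of Hmgcs1 reached a Parental library. The log2 fold changes of Hmgcs1 were -0.39 ± 0.0444 (SE; adjusted p = 2.77e-07), -0.28 ± 0.0443 (2.78e-05) and -0.49 ± 0.0446 (1.25e-08) for the ORP5/8, ATP11A/C and CDC50A KD groups.

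Acat2, the cytosolic thiolase that joins acetyl-CoA units, fell by 0.37, 0.10 and 0.20 on the log2 scale in ORP5/8, ATP11A/C and CDC50A KD. Pmvk, the phosphomevalonate kinase, averaged 27.6 ± 2.79 CPM in ORP5/8 KD, 31.4 ± 2.24 CPM in ATP11A/C KD and 33.5 ± 1.81 CPM in CDC50A KD, against 38.1 ± 1.74 CPM in Parental. Its log2 fold changes were -0.47, -0.28 and -0.18. The mevalonate kinase gene Mvk was lower in ORP5/8 KD alone among the 3 tests, at 29.9 ± 2.85 against 37.2 ± 1.94 CPM in Parental (-0.31, adjusted p = 0.00454). Neither -0.03 in ATP11A/C KD nor -0.05 in CDC50A KD passed (adjusted p = 0.827 and 0.66). Mvd, the decarboxylase that makes the first isoprenoid unit, passed in no group (-0.11, 0.04 and 0.03; adjusted p = 0.145, 0.626 and 0.689). The Acat2 call in ATP11A/C KD (adjusted p = 0.0415) ended without Parental 2, 3 or 4 or any single ATP11A/C KD library (0.0511 to 0.157), and under upper-quartile scaling (-0.07, 0.137). The Pmvk call in CDC50A KD (0.0281) ended without Parental 1, 2 or 4 or CDC50A KD 1 or 2 (0.0539 to 0.0849).

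Among the 3 prenyl diphosphate enzymes, 2, 1 and 1 were called lower in the ORP5/8, ATP11A/C and CDC50A KD groups, and none higher. The shares lower were 66.7%, 33.3% and 33.3%, against 24.3%, 20.2% and 26.1% of all tested genes. Fdps, the farnesyl diphosphate synthase, was lower in ORP5/8 KD and passed in neither other KD group. Its libraries read 401, 424, 420.1 and 397 CPM in ORP5/8 KD, 525, 513, 508 and 525 in ATP11A/C KD, and 557, 559, 581 and 577 in CDC50A KD, against 523, 589, 530.5 and 533 CPM in Parental. Every ORP5/8 KD library lay below every other library, while both other KD groups overlapped Parental. The log2 fold changes of Fdps were -0.41 ± 0.0411 (adjusted p = 4.71e-08), -0.07 ± 0.041 (0.187) and 0.06 ± 0.041 (0.202). The last passed without Parental 2 (0.11, adjusted p = 0.0234). Idi1, the isomerase of the isoprenoid units, averaged 145 ± 12.6 CPM in ORP5/8 KD, 181 ± 18.9 CPM in ATP11A/C KD and 176 ± 8.00 CPM in CDC50A KD, against 203 ± 4.56 CPM in Parental (-0.49, -0.17 and -0.21, all called). The ATP11A/C KD call of Idi1 (adjusted p = 0.0418) ended without any single library other than ATP11A/C KD 2 (0.0533 to 0.151) and under upper-quartile scaling (-0.15, 0.084). It also ended with the replicate number as a block and in a fit of the compared groups alone. Ggps1, which makes geranylgeranyl diphosphate, passed in no group (-0.10, 0.01 and -0.08; adjusted p = 0.25, 0.93 and 0.374).

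Of the 11 squalene and sterol enzymes, 8, 7 and 8 were called lower in the ORP5/8, ATP11A/C and CDC50A KD groups, and 0, 1 and 1 higher. Hsd17b7, a reductase that removes keto groups during sterol demethylation (chromosome 1, 169949535 to 169969241), had the lowest log2 fold change of the 28 genes in ORP5/8 KD. It read 48.2, 45.6, 42.3 and 47.0 CPM in ORP5/8 KD, 48.3, 54.9, 52.1 and 54.9 in ATP11A/C KD, and 47.1, 53.4, 48.7 and 48.3 in CDC50A KD, against 70.0, 66.3, 68.6 and 69.0 CPM in Parental. The KD and Parental libraries did not overlap. Its mean was 66.8%, 76.7% and 72.1% of the Parental mean, with log2 fold changes of -0.58 ± 0.0517 (adjusted p = 6.27e-09), -0.38 ± 0.0516 (4.09e-06) and -0.47 ± 0.052 (2.1e-07).

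Fdft1, the squalene synthase at the branch to sterols, averaged 56.5 ± 3.29 CPM in ORP5/8 KD, 69.9 ± 1.86 CPM in ATP11A/C KD and 70.3 ± 2.49 CPM in CDC50A KD, against 78.6 ± 3.69 CPM in Parental. Msmo1, the methylsterol monooxygenase, averaged 113 ± 4.64, 137 ± 7.89 and 137 ± 3.40 CPM in those KD groups, against 158 ± 5.22 CPM in Parental. Both fell most in ORP5/8 KD by their estimates, with log2 fold changes of -0.48, -0.17 and -0.16 for Fdft1 and -0.47, -0.20 and -0.20 for Msmo1. Lanosterol synthase (Lss) had log2 fold changes of -0.38, -0.11 and -0.14, and squalene epoxidase (Sqle) of -0.24, -0.16 and -0.20, all called. The lanosterol demethylase Cyp51 passed in ORP5/8 KD only among these tests (-0.35, -0.10 and -0.07; adjusted p = 9.54e-07, 0.0822 and 0.174). Without ATP11A/C KD 2, Cyp51 passed in ATP11A/C KD as well (-0.13, adjusted p = 0.0116). The Lss call in ATP11A/C KD (adjusted p = 0.0333) ended without Parental 2, 3 or 4 or ATP11A/C KD 3 or 4 (0.0739 to 0.123), and under upper-quartile scaling (-0.09, 0.092). It also ended with no low-count filter and in a fit of the compared groups alone.

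Sc5d and Nsdhl were lower in each KD group. Sc5d, the sterol desaturase, averaged 43.3 ± 1.36 CPM in ORP5/8 KD, 43.0 ± 3.87 CPM in ATP11A/C KD and 43.0 ± 2.22 CPM in CDC50A KD, against 55.9 ± 1.58 CPM in Parental (-0.37, -0.38 and -0.38). Nsdhl, the decarboxylating sterol dehydrogenase, had log2 fold changes of -0.25, -0.24 and -0.24. Tm7sf2, a sterol reductase with the lowest level of the 28 genes, was lower in CDC50A KD at 4.55 ± 0.306 CPM, against 6.27 ± 0.877 CPM in Parental (-0.46 ± 0.101, adjusted p = 0.000767). Its values of -0.17 in ORP5/8 KD and -0.12 in ATP11A/C KD did not pass. Dhcr7, a terminal reductase of the pathway, passed in no group (-0.09, 0.00 and 0.00; adjusted p = 0.128, 0.996 and 0.957).

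Ebp, the sterol isomerase, ran against the other enzymes. Its libraries read 59.6, 62.7, 60.9 and 58.7 CPM in ORP5/8 KD, 77.8, 72.6, 65.7 and 69.3 in ATP11A/C KD, and 78.1, 82.2, 81.4 and 75.0 in CDC50A KD, against 65.2, 66.1, 63.3 and 60.5 CPM in Parental. The CDC50A KD libraries all lay above Parental, and ATP11A/C KD 3 fell within the Parental range. Ebp rose in CDC50A KD (0.31 ± 0.0498, adjusted p = 2.72e-05), and also in ATP11A/C KD (0.16 ± 0.0497, 0.0137), the second not passing without ATP11A/C KD 1 (0.11, 0.0711). Its log2 fold change in ORP5/8 KD was -0.08 (adjusted p = 0.222).

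**Figure D2:**
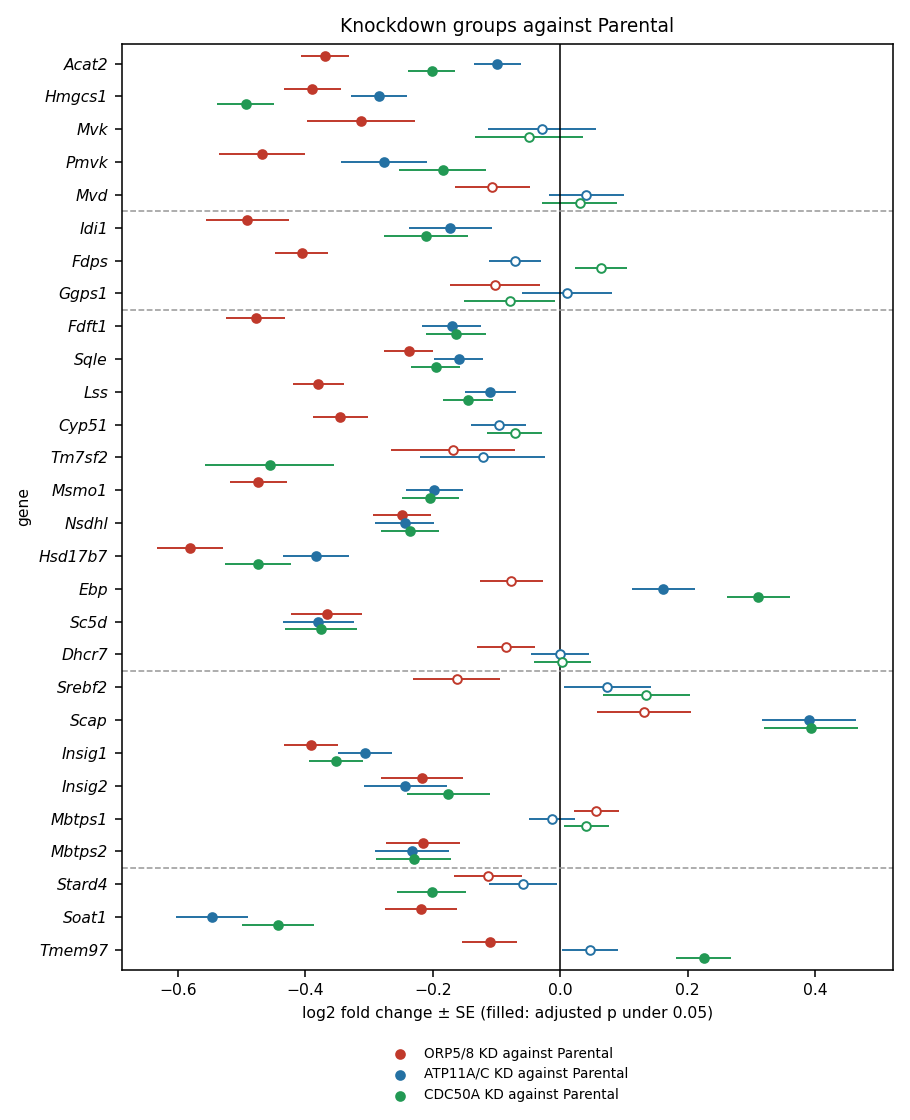
Log2 fold change ± SE of each of the 28 genes (rows, with dashed lines between roles) in ORP5/8 KD (red), ATP11A/C KD (blue) and CDC50A KD (green) against Parental. Filled points have an adjusted p under 0.05; most filled points lie left of 0, with Hsd17b7 at -0.58 in ORP5/8 KD the lowest and Scap at 0.39 in ATP11A/C and CDC50A KD the highest.

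Of 6 genes of SREBP2 and its processing, 3 were called lower in each KD group, and 0, 1 and 1 higher in ORP5/8, ATP11A/C and CDC50A KD. Srebf2 itself did not pass in any group while Insig1 and Insig2 were lower in each. Srebf2, which encodes SREBP2 (chromosome 15, 82147181 to 82205379), read 285, 316, 327 and 317 CPM in ORP5/8 KD, 429, 309, 368 and 361 in ATP11A/C KD, and 385, 368, 403 and 375 in CDC50A KD, against 358, 358, 331 and 346 CPM in Parental. The ORP5/8 KD libraries lay below Parental and the CDC50A KD libraries above it without overlap, and ATP11A/C KD spanned both sides. The log2 fold changes of Srebf2 were -0.16 ± 0.0684 (adjusted p = 0.0572), 0.07 ± 0.0683 (0.428) and 0.14 ± 0.0683 (0.106). The ORP5/8 KD value passed with no low-count filter (-0.16, 0.0366), in a fit of the compared groups alone (0.0111) and by DESeq2's Wald test (0.0489). The CDC50A KD value passed when only its own libraries and Parental were fitted (0.13, 0.00933), as did the ATP11A/C KD value without ATP11A/C KD 2 (0.15, 0.048).

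Insig1, which retains SCAP and is itself an SREBP target (chromosome 5, 28071363 to 28078662), read 105, 105, 98.3 and 109.7 CPM in ORP5/8 KD, 104, 117, 109.7 and 112 in ATP11A/C KD, and 110.3, 104, 106 and 109 in CDC50A KD, against 134, 137, 137 and 139.5 CPM in Parental. Every KD library was below every Parental library. The log2 fold changes of Insig1 were -0.39 ± 0.0426 (adjusted p = 1.45e-07), -0.31 ± 0.0426 (6.64e-06) and -0.35 ± 0.0428 (8.82e-07). Insig2, the second INSIG gene, stood much lower, at 20.1, 19.2, 18.5 and 18.8 CPM in ORP5/8 KD, 17.8, 21.0, 18.3 and 18.1 in ATP11A/C KD, and 19.1, 19.4, 19.5 and 20.7 in CDC50A KD, against 20.7, 21.2, 23.7 and 23.5 CPM in Parental. ATP11A/C and CDC50A KD each touched the Parental range with 1 library. Insig2 had log2 fold changes of -0.22 (adjusted p = 0.00892), -0.24 (0.00521) and -0.18 (0.0291). The last ended without Parental 3 or 4 or CDC50A KD 1 (0.057 to 0.102) with no low-count filter (-0.16, 0.0861) and with the GC slope described below (-0.09, 0.248), and the first under upper-quartile scaling (-0.14, 0.0772).

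Scap, the escort and sterol sensor of SREBP2 (chromosome 9, 110333288 to 110384950), was higher in ATP11A/C and CDC50A KD. Its libraries read 88.9, 96.5, 104 and 99.7 CPM in ORP5/8 KD, 135, 94.7, 116 and 119 in ATP11A/C KD, and 121, 116, 118 and 112 in CDC50A KD, against 93.3, 90.9, 84.7 and 86.6 CPM in Parental. ATP11A/C KD 2 lay just above the highest Parental library, and CDC50A KD stood clear of Parental. The log2 fold changes of Scap were 0.13 ± 0.0741 (adjusted p = 0.156), 0.39 ± 0.074 (0.000253) and 0.39 ± 0.0742 (0.000164). The first passed under upper-quartile scaling (0.21, 0.0217) and in a fit of the compared groups alone (0.13, 0.041). Of the proteases that free SREBP2, Mbtps1 passed in no group (0.06, -0.01 and 0.04) except in ORP5/8 KD under upper-quartile scaling (0.13, 0.00395). Mbtps2 was lower in all 3 (-0.22, -0.23 and -0.23; adjusted p = 0.00449, 0.00337 and 0.00259), in ORP5/8 KD not under upper-quartile scaling (-0.14, 0.0521).

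Scap and Srebf2 are rich in G and C, at 59.1% and 57.9% of the bases of their longest transcripts. The median was 49.2% over tested genes with a mean of at least 8 CPM. Over those same genes, libraries differed in how level followed base composition. The slope of log2 level on GC content, per 10 percentage points, ran from -0.09 to 0.12 in ORP5/8 KD libraries, from -0.10 to 0.16 in ATP11A/C KD and from -0.02 to 0.08 in CDC50A KD, against -0.13 to -0.03 in Parental. With that slope as a covariate, an alternative chosen after seeing the data, Scap had log2 fold changes of 0.00, 0.26 and 0.24, the last pair still called (adjusted p = 0.000158 and 0.000552). Srebf2 was then lower in ORP5/8 KD (-0.29, adjusted p = 1.01e-06) and at -0.05 and -0.02 in the other groups. Idi1, with 41.9% G and C, was then no longer called in ATP11A/C KD (-0.06, adjusted p = 0.133) or in CDC50A KD (-0.06, 0.147). Insig2 was then not called in CDC50A KD (-0.09, 0.248), nor Acat2 in ATP11A/C KD (-0.08, 0.0761), while Mvd passed in ORP5/8 KD (-0.21, 0.000131) and Mvk in CDC50A KD (-0.19, 0.0431). In that fit 21, 13 and 16 of the 28 genes were lower in ORP5/8, ATP11A/C and CDC50A KD. Of all 13107 genes tested, 3277, 2712 and 3186 were lower there, in the same order of groups.

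Of 3 genes of sterol transport and storage, 2, 1 and 2 were called lower in the ORP5/8, ATP11A/C and CDC50A KD groups, and 0, 0 and 1 higher. The shares lower were 66.7%, 33.3% and 66.7%, against 24.3%, 20.2% and 26.1% of all tested genes. In CDC50A KD the share higher was 33.3%, against 24.3%. Soat1, the enzyme that esterifies cholesterol for storage in lipid droplets (chromosome 1, 156424525 to 156474331), had its lowest level in ATP11A/C KD. It read 276, 269, 242 and 268 CPM in ORP5/8 KD, 209.8, 192, 207 and 232 in ATP11A/C KD, and 223, 243, 229.7 and 207 in CDC50A KD, against 302, 316, 304 and 305 CPM in Parental. No KD library reached the Parental range. The log2 fold changes of Soat1 were -0.22 ± 0.0561 (adjusted p = 0.00302), -0.55 ± 0.0564 (1e-07) and -0.44 ± 0.0564 (1.59e-06), or 86.0%, 68.5% and 73.6% of the Parental mean. Stard4, a cytosolic sterol carrier, was lower in CDC50A KD alone among the 3 tests (-0.20, adjusted p = 0.00356), with -0.11 and -0.06 in ORP5/8 and ATP11A/C KD (0.0867 and 0.425). Its ORP5/8 KD value passed without ORP5/8 KD 2 (-0.14, 0.043).

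Tmem97, a sterol-responsive protein of the endoplasmic reticulum also known as the sigma-2 receptor, was called in opposite directions in ORP5/8 and CDC50A KD. It read 134, 137, 138 and 127 CPM in ORP5/8 KD, 149.6, 150.0, 143 and 156 in ATP11A/C KD, and 166, 174, 171 and 166 in CDC50A KD, against 142, 157, 140.4 and 139.6 CPM in Parental. CDC50A KD lay above and ORP5/8 KD below all Parental libraries. Tmem97 rose in CDC50A KD (0.23 ± 0.0435, adjusted p = 0.000211) and was called lower in ORP5/8 KD (-0.11 ± 0.0435, 0.0425), a call that ended when any single library of either group was left out (0.0503 to 0.326) and under upper-quartile scaling (-0.04, 0.502). Its log2 fold change in ATP11A/C KD was 0.05 (0.43).

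**Figure D3:**
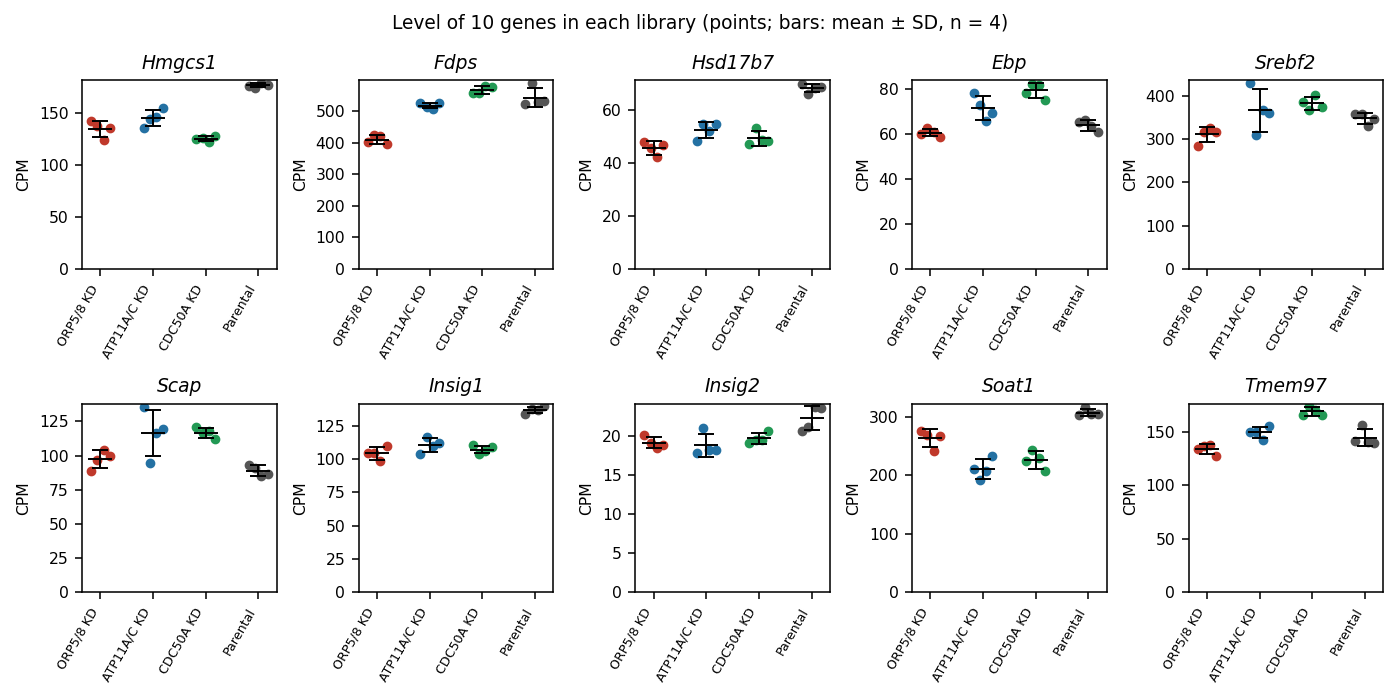
Level in CPM of 10 of the genes in each library (points), with the mean ± SD of the 4 libraries of each group (bars), for ORP5/8 KD, ATP11A/C KD, CDC50A KD and Parental from left to right, each axis starting at 0. Hsd17b7 and Insig1 are lower in every KD library than in any Parental library, the ORP5/8 KD points of Fdps lie below all others, and the means of Scap and Ebp are highest in ATP11A/C and CDC50A KD.

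The KD groups were then compared with each other, which tests the differences between them directly. ORP5/8 KD stood below ATP11A/C KD in 14 of the 28 genes and above it in 1, Soat1, against 20.4% lower and 18.3% higher over all genes tested (median log2 fold change -0.15). It stood below CDC50A KD in 13 and above it in 2, Soat1 and Tm7sf2, against 29.4% and 27.5% (median -0.12). Under upper-quartile scaling, higher genes made up 60.5% and 60.7% of all calls in these comparisons, against 47.2% and 48.4% under TMM. The counts of the 28 genes were then 12 lower and 2 higher against ATP11A/C KD, and 12 lower and 5 higher against CDC50A KD. Of all 13107 genes tested, 2018 were then lower and 3095 higher against ATP11A/C KD, and 2891 and 4463 against CDC50A KD.

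Among the genes lower in ORP5/8 KD were enzymes from the first thiolase step to lanosterol demethylation. Fdps averaged 410.4 ± 13.6 CPM in ORP5/8 KD, against 518 ± 8.78 in ATP11A/C KD (-0.34 ± 0.041, adjusted p = 1.16e-06) and 569 ± 12.2 in CDC50A KD (-0.47 ± 0.0411, 5.35e-09). Against ATP11A/C KD and CDC50A KD, the log2 fold changes of ORP5/8 KD were -0.31 and -0.31 for Fdft1, -0.28 and -0.27 for Msmo1, -0.32 and -0.28 for Idi1, -0.27 and -0.24 for Lss, -0.25 and -0.27 for Cyp51 and -0.27 and -0.17 for Acat2. Those of Mvk were -0.28 and -0.26 and those of Pmvk -0.19 and -0.28. The Mvk call against ATP11A/C KD ended without ATP11A/C KD 4 (adjusted p = 0.0577), and the one against CDC50A KD without ORP5/8 KD 1 (0.0581) or CDC50A KD 4 (0.059) and under upper-quartile scaling (-0.20, 0.0559). The Pmvk call against ATP11A/C KD ended without ORP5/8 KD 1 or 4 or ATP11A/C KD 1 or 3 (0.0825 to 0.134), under upper-quartile scaling (-0.14, 0.112) and in a fit of the compared groups alone (-0.19, 0.0849). Hmgcs1 did not pass against either (-0.10 and 0.10; adjusted p = 0.0689 and 0.0508). Its value against CDC50A KD passed under upper-quartile scaling (0.17, 0.00279) and by DESeq2's Wald test (0.11, 0.0349), and its value against ATP11A/C KD without ORP5/8 KD 1 or ATP11A/C KD 1 (0.0219 and 0.0435).

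The control genes and late enzymes split. Srebf2 stood lower in ORP5/8 KD libraries than in those of ATP11A/C KD (-0.24 ± 0.0683, adjusted p = 0.0087) and than in CDC50A KD (-0.30 ± 0.0684, 0.000926), although it passed in no group against Parental. Without ATP11A/C KD 1 the first was -0.15 (0.0486). Scap was lower in ORP5/8 KD than in both (-0.26 and -0.26; adjusted p = 0.00756 and 0.00469), as were Ebp (-0.24 and -0.39) and Tmem97 (-0.16 and -0.34), although Tmem97 did not pass against ATP11A/C KD under upper-quartile scaling (-0.11, 0.0537). Hsd17b7 was lower than in ATP11A/C KD (-0.20, adjusted p = 0.0043) but did not pass against CDC50A KD (-0.11, 0.0844). Insig1, Insig2, Mbtps2, Nsdhl, Sc5d and Sqle passed in no comparison between KD groups, with log2 differences from -0.08 to 0.07. Insig1 passed against ATP11A/C KD without ATP11A/C KD 1 (-0.11, 0.0466). Mvd did not pass in ORP5/8 KD against ATP11A/C KD (-0.15, 0.0507) or against CDC50A KD (-0.14, 0.0508), but passed in both without ORP5/8 KD 3 (-0.18 and -0.17; adjusted p = 0.0235 and 0.0251). Stard4 did not pass in CDC50A KD against ATP11A/C KD (-0.14, 0.0522), but passed by DESeq2's Wald test (-0.15, 0.0358) and under upper-quartile scaling (-0.16, 0.0338). Soat1 was higher in ORP5/8 KD, at 264 ± 15.1 CPM, than in ATP11A/C KD at 210.1 ± 16.8 (0.33 ± 0.0563, adjusted p = 8.27e-05) and CDC50A KD at 226 ± 15.1 (0.22 ± 0.0563, 0.00194), where single libraries overlapped. Tm7sf2 was higher in ORP5/8 KD than in CDC50A KD (0.29, adjusted p = 0.0187), a call that ended without CDC50A KD 3 (0.0507) and with no low-count filter (0.28, 0.0516).

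In CDC50A KD against ATP11A/C KD, 3 of the 28 genes were higher and 3 lower (10.7% each, median log2 fold change 0.00). Those shares were near the 13.5% and 12.7% of all genes tested. Tmem97 (0.18, adjusted p = 0.00511), Fdps (0.14, 0.0193) and Ebp (0.15, 0.0304) were higher, and Hmgcs1 (-0.21, 0.00187), Tm7sf2 (-0.33, 0.0182) and Acat2 (-0.10, 0.0464) were lower. Hmgcs1 and Tmem97 passed under every alternative tried. Fdps did not pass without ATP11A/C KD 3 or CDC50A KD 3 or 4 (0.0641 to 0.0784), and Tm7sf2 without CDC50A KD 3 (0.0576). Ebp did not pass without ATP11A/C KD 3 or 4 or CDC50A KD 1, 2 or 3 (0.0649 to 0.144). Acat2 did not pass without ATP11A/C KD 2, 3 or 4 or CDC50A KD 1, 2 or 3 (0.0578 to 0.112). The Ebp and Acat2 calls also ended in a fit of the compared groups alone. That of Acat2 ended with no low-count filter and with the replicate number as a block as well.

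**Figure D4:**
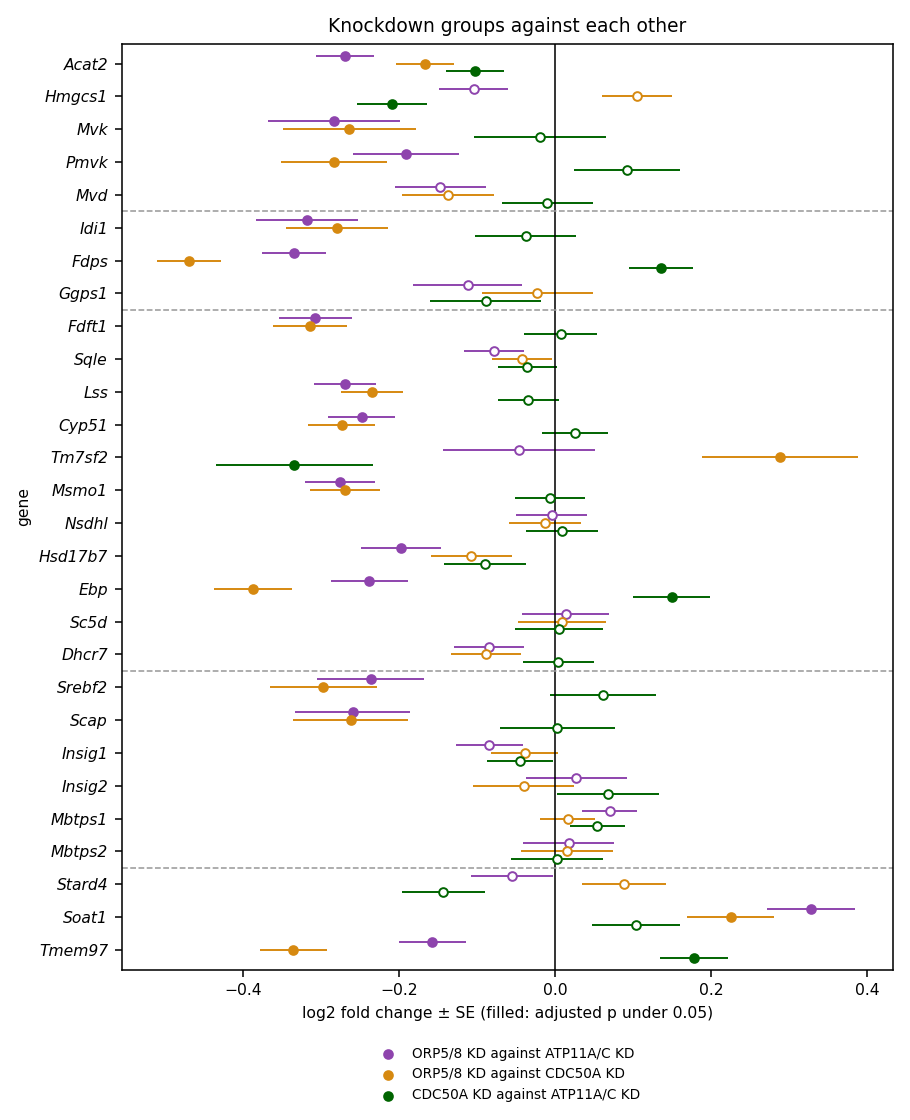
Log2 fold change ± SE of each of the 28 genes (rows) in ORP5/8 KD against ATP11A/C KD (purple), ORP5/8 KD against CDC50A KD (orange) and CDC50A KD against ATP11A/C KD (dark green), with filled points for an adjusted p under 0.05. Fdps at -0.47 in ORP5/8 KD against CDC50A KD lies lowest, Soat1 at 0.33 in ORP5/8 KD against ATP11A/C KD highest, and most dark green points are open.

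Genes around the pathway were read from 5 further lists, whose counts stand beside the shares of all tested genes called lower (24.3%, 20.2% and 26.1% for the ORP5/8, ATP11A/C and CDC50A KD groups) and higher (22.0%, 17.4% and 24.3%). Of 6 suppliers of acetyl-CoA and acetoacetate, 3, 4 and 4 were called lower against Parental in the ORP5/8, ATP11A/C and CDC50A KD groups (50%, 66.7% and 66.7%), and 1, 1 and 0 higher. Acss2, which makes acetyl-CoA from acetate in the cytosol, had 33.5 ± 1.24 CPM in ORP5/8 KD, 28.2 ± 1.03 CPM in ATP11A/C KD and 27.6 ± 0.638 CPM in CDC50A KD, against 54.0 ± 0.976 CPM in Parental. Its log2 fold changes of -0.69, -0.94 and -0.97 were larger in size than that of any of the 28 genes in the same group. The mitochondrial citrate carrier Slc25a1 fell by 0.41 in ORP5/8 KD, and Aacs, the acetoacetyl-CoA synthetase, by 0.35 in ORP5/8 KD and by 0.26 in CDC50A KD on the log2 scale. In CDC50A KD Slc25a1 did not pass (0.13, adjusted p = 0.0714), but passed as higher without Parental 2 (0.16, 0.0322). ATP citrate lyase (Acly) fell by 0.18 in ATP11A/C KD.

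Of 13 tested genes of sterol trafficking, hydrolysis and lipoprotein receptors among 15 listed, 9, 8 and 10 were called lower in the ORP5/8, ATP11A/C and CDC50A KD groups (69.2%, 61.5% and 76.9%, against 24.3%, 20.2% and 26.1% of all tested genes), and 0 higher in each. Nceh1, a neutral cholesterol ester hydrolase, averaged 82.9 ± 4.03 CPM in ORP5/8 KD, 58.2 ± 4.08 CPM in ATP11A/C KD and 62.3 ± 5.84 CPM in CDC50A KD, against 115 ± 3.35 CPM in Parental (-0.47, -0.98 and -0.88). Npc2, the soluble sterol carrier of lysosomes, stood at 277 ± 8.70 CPM in ORP5/8 KD, 237 ± 6.10 CPM in ATP11A/C KD and 248 ± 6.71 CPM in CDC50A KD, against 361 ± 14.2 CPM in Parental (-0.38, -0.61 and -0.54). The lysosomal acid lipase Lipa had log2 fold changes of -0.34, -0.44 and -0.42 in the same order of groups. In ORP5/8 KD, Stard3, a sterol transfer protein of late endosomes, and Gramd1b, which carries cholesterol from the plasma membrane to the endoplasmic reticulum, had log2 fold changes of -0.54 and -0.47.

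The remaining lists were mixed. Of 15 genes of the non-sterol isoprenoid branch, 5 were higher and 5 lower in ORP5/8 KD (33.3% each, against 22.0% and 24.3% of all tested genes). In ATP11A/C KD 2 were higher and 1 lower (13.3% and 6.67%, against 17.4% and 20.2%), both shares below those of all genes, and in CDC50A KD 6 and 2 (40% and 13.3%, against 24.3% and 26.1%). Coq2, the prenyl transferase of coenzyme Q synthesis, was higher in ORP5/8 KD at 38.8 ± 1.22 CPM, against 26.2 ± 1.29 CPM in Parental (0.56, adjusted p = 3.23e-08), while Icmt, the methyl transferase of prenylated proteins, and Nus1, a subunit of the dolichol-forming transferase, were lower (-0.41 and -0.35). In ATP11A/C KD the polyprenol reductase Srd5a3 was lower (-0.34), and Pdss2, a coenzyme Q side chain enzyme, and Fnta, a subunit shared by protein prenyl transferases, were higher (0.27 and 0.16). In CDC50A KD Fnta and Fntb, the subunits of protein farnesyl transferase, were higher (0.30 and 0.25), and Rabggtb, a subunit of the Rab prenyl transferase, was lower (-0.37).

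Of 12 genes of sterol-regulated degradation and SREBP co-factors, 4 were higher and 4 lower in ORP5/8 KD (33.3% each, against 22.0% and 24.3% of all tested genes). In ATP11A/C and CDC50A KD 3 were higher and 3 lower (25.0% each), near the shares of all tested genes (17.4% and 20.2%, and 24.3% and 26.1%). Erlin1 and Erlin2, which form a complex that hands endoplasmic reticulum proteins to degradation, had log2 fold changes of -0.32 and -0.31 in ORP5/8 KD and -0.56 and -0.32 in ATP11A/C KD, and Erlin2 of -0.18 in CDC50A KD. Nfyc, a subunit of the CCAAT-binding factor NF-Y, was higher in ATP11A/C KD (0.23) and CDC50A KD (0.35), and Nfya, another subunit, was lower in CDC50A KD (-0.17). Of 4 electron donors of the sterol enzymes, 0 were higher and 3 lower in ORP5/8 KD (75.0% lower, against 24.3% of all tested genes), 2 and 2 in ATP11A/C KD (50% each, against 17.4% and 20.2%), and 1 and 2 in CDC50A KD (25.0% and 50%, against 24.3% and 26.1%). The cytochrome P450 reductase Por, which feeds electrons to Cyp51 and Sqle, averaged 110.2 ± 5.91 CPM in ORP5/8 KD, against 151 ± 10.0 CPM in Parental (-0.46, adjusted p = 4.95e-07), and was called lower in ATP11A/C KD (-0.15, 0.0305) and CDC50A KD (-0.15, 0.028). The first ended without Parental 1 or 2 or ATP11A/C KD 2, 3 or 4 (0.0615 to 0.156) and under upper-quartile scaling (-0.13, 0.056), the second without Parental 1 or 2 or CDC50A KD 2 (0.0541 to 0.131). Cyb5r3, the cytochrome b5 reductase, stood at -0.42 on the log2 scale in ATP11A/C KD and at -0.23 in CDC50A KD, and Cyb5b, a form of cytochrome b5, of 0.12 and 0.21. The Cyb5b call in ATP11A/C KD ended with no low-count filter (0.12, 0.0589).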

How the data were processed

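RNA was sequenced in 16 libraries of RAW264.7 cells, 4 in each of 4 groups taken from the labels, with libraries made from 500 ng of RNA by a stranded mRNA kit. Per the submitters' processing notes, the tools were Trim Galore 0.5.0, STAR 2.7.5a, Picard and RSEM, with the build mm10; the annotation release is not given in the sources used here. The authors deposited RSEM expected counts per gene, of which 4.63% carry decimals, which share reads between overlapping or similar genes; they were rounded to whole counts here. The 55665 records are 55573 genes and 92 ERCC spike-ins whose counts sum to 0.

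Genes were kept by filterByExpr at a minimum count of 10, leaving 13107 genes with 100.0% of counts. All 16 libraries were scaled by TMM and fitted together with edgeR 4.0.16's quasi-likelihood test (glmQLFit, glmQLFTest) in R 4.3.3, and p-values were adjusted over all tested genes within each comparison by Benjamini-Hochberg. The call threshold was an adjusted p of 0.05; standard errors come from the estimate and its F statistic. The fits were tested on simulated data for ORP5/8 KD against Parental. Of 50 genes changed 1.25-fold, 35 were called in the right direction, and 48 of 50 changed 1.5-fold. All 50 were called at 2-fold and at 4-fold. A gene that did not pass may thus still differ by a small fold. Coordinates are from GENCODE M21 on GRCm38, and 1 listed gene matched only without its identifier version.

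The 28 genes and the lists around them were chosen with earlier results of these data known. All 28 genes are named, with every library's value where a log2 fold change against Parental reached 0.5 in size, for Srebf2 and both INSIG genes and for genes that ran against most; Hmgcs1 and Fdps were added after their values were seen. Also named are, of each further list, the called genes with the smallest adjusted p in each comparison with Parental, up to 3. The results of some genes taken by this rule are not reported here. Alternatives were upper-quartile scaling, DESeq2 size factors, no filter, a filter of 1 CPM in 4 libraries, fitting only both groups compared, the replicate number as a block, DESeq2 1.42.0's Wald test, each library left out and, chosen after seeing the data, each library's GC slope as a covariate.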

Additional observations from a re-analysis of the deposited data

Results flagged for a closer look

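In 7 of 112 groups of 4 libraries, 1 library lay farther from the others than Dixon's 95% limit for the gap over the range, and chance gives about 5 in 100 such groups. Parental 2 was high for Fdps at 589 CPM, with 523 to 533 CPM in the others, for Tmem97 at 157 CPM (others 139.6 to 142) and for Mvk at 40.1 CPM (others 36.1 to 36.3). ORP5/8 KD 3 was low for Msmo1 at 107 CPM (others 115 to 117), and ORP5/8 KD 1 was high for Sc5d at 45.3 CPM (others 42.5 to 42.8). ATP11A/C KD 4 was low for Fdft1 at 67.1 CPM (others 70.6 to 71.1), and ATP11A/C KD 2 was high for Insig2 at 21.0 CPM (others 17.8 to 18.3).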

How the results depend on the processing

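Of 168 values (28 genes in 6 comparisons), 152 kept their direction and side of the threshold under upper-quartile scaling, 160 with no filter, 157 in fits of the compared groups alone, 155 with the GC slope, 164 by DESeq2's Wald test, and 166 each with DESeq2 size factors and the CPM filter; no call changed sign. Genes called lower in all alternatives numbered 16 of 19, 12 of 15 and 14 of 17 in ORP5/8, ATP11A/C and CDC50A KD against Parental. The number called higher in ORP5/8 KD against Parental was 0, but 2 under upper-quartile scaling and 1 in the fit of the compared groups alone. In ORP5/8 KD it was 2 against ATP11A/C KD under upper-quartile scaling (1 under TMM), and against CDC50A KD 5 under that scaling and 1 with no filter (2 under TMM with the filter). The cause was not tested.

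With 1 library left out, the number higher ran from 1 (without ATP11A/C KD 1) to 3 (without ATP11A/C KD 2) in ATP11A/C KD against Parental, and from 1 (without CDC50A KD 3) to 4 (without ORP5/8 KD 3) in ORP5/8 KD against CDC50A KD. In CDC50A KD against ATP11A/C KD the number lower ran from 1 (without CDC50A KD 3) to 5 (without ATP11A/C KD 1), and the number higher from 1 (without ATP11A/C KD 3 or CDC50A KD 3) to 3. The counts of lower genes against Parental ran from 18 to 19, from 12 to 15 and from 15 to 17.

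The labels do not say whether replicate numbers pair the libraries. Same-numbered deviations from group means correlated at -0.12 to 0.11, and in no comparison did every number correlate best with itself (0 to 3 of 4). With so few libraries these correlations cannot show that no pairing exists. With the replicate number as a block, 13 genes were lower in ATP11A/C KD against Parental and 2 in CDC50A KD against ATP11A/C KD; the other counts equalled those without it. Calls with log2 fold changes near 0.1 (Acat2 and Lss in ATP11A/C KD, Tmem97 in ORP5/8 KD) ended when single libraries were left out.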

Other observations

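The median log2 level of the 28 genes, centred per gene over all libraries, ran from -0.14 to -0.11 in ORP5/8 KD libraries, from -0.04 to 0.04 in ATP11A/C KD and from -0.03 to 0.01 in CDC50A KD, against 0.11 to 0.17 in Parental. Parental and ORP5/8 KD thus held the ends of the range, with no overlap between either of them and the other groups.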
